A study of Mus musculus with 94 samples.

Results

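The genes described here mark tissue macrophages, the resident phagocytes of most organs. They are Lyz2, C1qa, C1qb, C1qc, Csf1r, Adgre1, Mrc1, Marco, Vsig4 and Cd5l, and every array probe was taken whose platform symbol, or current symbol by its gene identifier, was one of these (Adgre1 was formerly Emr1). Of the 10 genes, 9 had a named probe, out of 16593 genes with one on the array. They gave 13 of 25697 probes, 3 each for Lyz2 and Adgre1 and 1 for each other gene. Csf1r, which encodes the receptor for the growth factor CSF1, was not analysed here. Probes of a gene are numbered by brightness, and the brightest stands for the gene where genes are counted.

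The study compared mutants of Hmgn1, Hmgn3 or Hmgn5, genes for nucleosome-binding chromatin proteins, with wild types. All mice were males of a C57BL/6N background, 17 weeks old, and the labels call the mutants homozygous without describing the alleles. Brain, liver, spleen and thymus of 4 labelled mutants and 4 wild types per line were each hybridised to 1 array, except that the Hmgn1 and Hmgn5 lines had 3 wild-type livers each. This came to 94 arrays of 24 mice. Wild types were placed in a line by the number ranges of the mice, 1 of them by elimination. Values are the authors' normalized intensities. A change is the mean log2(intensity + 16) of labelled mutants minus that of wild types, which understates the change of dim probes, with a standard error (SE). Adjusted p-values are two-sided limma tests with Benjamini-Hochberg adjustment over all probes tested in a tissue, and a change was called when the adjusted p was under 0.05.

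Macrophages of different organs share a core of genes and carry others that depend on where they live. Liver macrophages (Kupffer cells) line the blood sinusoids and carry complement receptors such as VSIG4. Splenic macrophages filter blood and clear red cells, and microglia are the macrophages of brain tissue. LYZ2 is the lysozyme of macrophages, monocytes and neutrophils, an enzyme that cleaves bacterial cell walls. C1QA, C1QB and C1QC are the chains of C1q, which starts the classical complement cascade. ADGRE1 is the F4/80 antigen, an adhesion receptor, MRC1 is the mannose receptor, MARCO is a scavenger receptor for bacteria, and CD5L is a secreted protein of tissue macrophages.

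The tissues read as labelled by their own markers. Apoa1 lay between 11190.0 and 17150.0 in liver, Cd79b between 3117 and 5305 in spleen, Rag1 between 1352 and 2486 in thymus and Mbp between 12380.0 and 16200.0 in brain, each above its range in the other tissues. The Alb probe reached no more than 199.2 in liver, and the Snap25 probe stayed between -7.46 and 11.2 in brain. Both Hmgn3 probes fell in spleen (-1.70 and -1.78), thymus and brain of the Hmgn3 line. The Hmgn1 probe passed in no tissue of its line, and the Hmgn5 probe fell in thymus (-1.08) but rose in liver (0.59). The sources used here do not place these probes relative to the mutations, so mutants are called labelled mutants and each direction rests on the labels. Separate mice gave the replicates. These are whole organs, so fewer macrophages and less RNA per macrophage cannot be told apart.

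The promoters of Lyz2 and Marco, the 2 genes called below, and of C1qb and C1qc, which lie next to each other and had like values in liver, are shown as the 250 bases before the gene start. Sequences are from RefSeq on GRCm38.p6, where 7 of the 10 genes had one, and are written 5′ to 3′ on the gene's own strand, with matches to a PU.1-type motif in capitals.
Lyz2, chr10:117282273-117282522, minus strand: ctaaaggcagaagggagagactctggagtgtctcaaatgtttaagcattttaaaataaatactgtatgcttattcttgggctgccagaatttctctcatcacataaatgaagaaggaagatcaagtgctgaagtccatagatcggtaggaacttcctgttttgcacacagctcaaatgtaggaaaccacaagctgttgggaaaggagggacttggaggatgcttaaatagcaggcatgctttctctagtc
Marco, chr1:120505025-120505274, minus strand: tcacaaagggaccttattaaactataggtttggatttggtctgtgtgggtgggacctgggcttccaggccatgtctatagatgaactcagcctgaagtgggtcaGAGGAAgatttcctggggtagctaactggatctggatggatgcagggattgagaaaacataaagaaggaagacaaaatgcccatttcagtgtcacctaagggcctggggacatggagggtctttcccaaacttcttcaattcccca
C1qb, chr4:136886201-136886450, minus strand: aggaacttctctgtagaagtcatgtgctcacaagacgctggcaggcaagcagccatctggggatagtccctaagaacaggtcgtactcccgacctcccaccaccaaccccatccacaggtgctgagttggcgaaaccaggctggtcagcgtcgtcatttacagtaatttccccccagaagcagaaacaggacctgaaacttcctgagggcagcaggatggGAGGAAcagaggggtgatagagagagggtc
C1qc, chr4:136892915-136893164, minus strand: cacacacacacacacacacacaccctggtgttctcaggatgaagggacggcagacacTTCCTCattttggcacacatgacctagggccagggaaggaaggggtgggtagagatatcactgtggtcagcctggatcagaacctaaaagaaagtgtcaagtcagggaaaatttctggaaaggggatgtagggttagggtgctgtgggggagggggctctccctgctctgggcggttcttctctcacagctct
The 3 motifs of factors active in macrophages that were searched on both strands were GAGGAA (PU.1), TTGCNNAA (C/EBP) and TGCTGAC (MAF). The PU.1-type motif was found once each upstream of Marco, C1qb and C1qc, at 146, 30 and 193 bases before the start, for C1qc as TTCCTC on the strand opposite to the gene. It was present in 23.3% of all 32851 promoter windows of this length. The Lyz2 window held none of the 3 motifs. TTGCNNAA was in 9.56% and TGCTGAC in 3.81% of all windows, and neither was in these 4. C1qa, C1qb and C1qc lie on chromosome 4 with 0 other annotated genes between them.

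In wild types, with all 94 arrays quantile-normalized together, Lyz2, C1qa, C1qb, C1qc, Adgre1, Mrc1 and Marco had their highest mean in spleen, Vsig4 had it in liver, and Cd5l lay at the noise. On the deposited values spleen did not come first for C1qa, C1qb, C1qc and Mrc1, although for C1qb its difference from brain did not pass. Nor did spleen pass against every tissue for Marco or for the second Adgre1 probe, as given gene by gene. Levels are means ± SD over 10 livers and 12 each of the other tissues. Lyz2 averaged 7722 ± 1328 in spleen, 1269 ± 663 in thymus, 177 ± 40.6 in liver and 43.1 ± 7.65 in brain. Every neighbouring step in this order passed, and the spleen-minus-thymus difference was 2.76 on the log2 scale (SE 0.19, adjusted p = 2.07e-17). On the deposited values the liver-minus-brain step of Lyz2 did not pass (0.50, adjusted p = 0.0778). The second Lyz2 probe gave the same order, at 2093 ± 299.6, 335 ± 137, 89.7 ± 39.2 and 19.9 ± 8.92.

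The 3 C1q chains also read highest in spleen on this scale. C1qb averaged 1565 ± 211 in spleen, 655 ± 144 in thymus, 353 ± 49.8 in brain and 218 ± 87.9 in liver. C1qc ran in the same order, with 1101 ± 181, 519 ± 99.2, 293 ± 39.4 and 203 ± 75.6. C1qa averaged 217 ± 53.2 in spleen, 91.8 ± 28.9 in thymus, 69.9 ± 23.0 in liver and 58.5 ± 8.03 in brain, and its liver and brain levels did not differ by the test (0.17, adjusted p = 0.276). Its liver-minus-thymus difference (-0.30, adjusted p = 0.0478) did not pass without the offset of 16 (adjusted p = 0.0798) and was 0.14 on the deposited values (adjusted p = 0.556). The place of brain in these orders depended on the scaling. On the deposited values, where each tissue keeps its own scale, brain was above spleen for C1qa (spleen minus brain -0.73, adjusted p = 0.000416) and C1qc (-0.59, adjusted p = 0.00244). For C1qb that difference was -0.34 (adjusted p = 0.143).

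Of the surface receptors, Adgre1 averaged 364 ± 96.7 in spleen, 107 ± 28.5 in thymus, 93.8 ± 44.1 in liver and 32.1 ± 8.70 in brain. Its thymus and liver levels did not differ by the test (liver minus thymus -0.23, adjusted p = 0.236). On the deposited values brain was level with liver (0.00) and not below thymus (thymus minus brain -0.33, adjusted p = 0.202). There the second Adgre1 probe did not pass for liver minus spleen (-0.245, adjusted p = 0.336) or spleen minus brain (0.033, adjusted p = 0.897). Mrc1 averaged 651 ± 179.8 in spleen, 389.6 ± 124 in liver, 235 ± 36.5 in thymus and 31.3 ± 5.03 in brain, and every neighbouring step passed. Its order of spleen over liver turned on the deposited values (liver minus spleen 0.61, adjusted p = 0.00957). Marco was dim, at 46.4 ± 26.5 in spleen and 20.6 ± 19.0 in liver, and thymus (5.65 ± 5.09) and brain (4.88 ± 2.40) did not differ by the test (adjusted p = 0.901). On the deposited values the Marco difference of liver minus spleen was -0.03 (adjusted p = 0.906) and that of spleen minus brain was 0.21 (adjusted p = 0.19), so neither passed, and Marco was lower in thymus than in brain (-0.46, adjusted p = 0.00464).

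Vsig4 averaged 287 ± 122 in liver, against 25.3 ± 18.3 in thymus and 21.96 ± 12.8 in spleen. The liver-minus-spleen difference was 2.98 (SE 0.211, adjusted p = 1.71e-17), while spleen and thymus did not differ by the test (adjusted p = 0.855). In brain 0 of 12 wild-type arrays were above noise for Vsig4. Cd5l was above noise on 1 of 10 wild-type livers and on 0 arrays of the other wild-type tissues. Whether the Cd5l probe reads its RNA was not tested, so these values do not show that the RNA was absent. Of the 12 member probes tested, 11 passed between liver and spleen, 8 between liver and thymus, 9 between liver and brain, 10 between spleen and thymus, 12 between spleen and brain and 10 between thymus and brain. Among all 22022 probes tested, the shares that passed were 62.2%, 62.8%, 65.6%, 44.3%, 66.7% and 67.2% in that order.

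**Figure D1:**
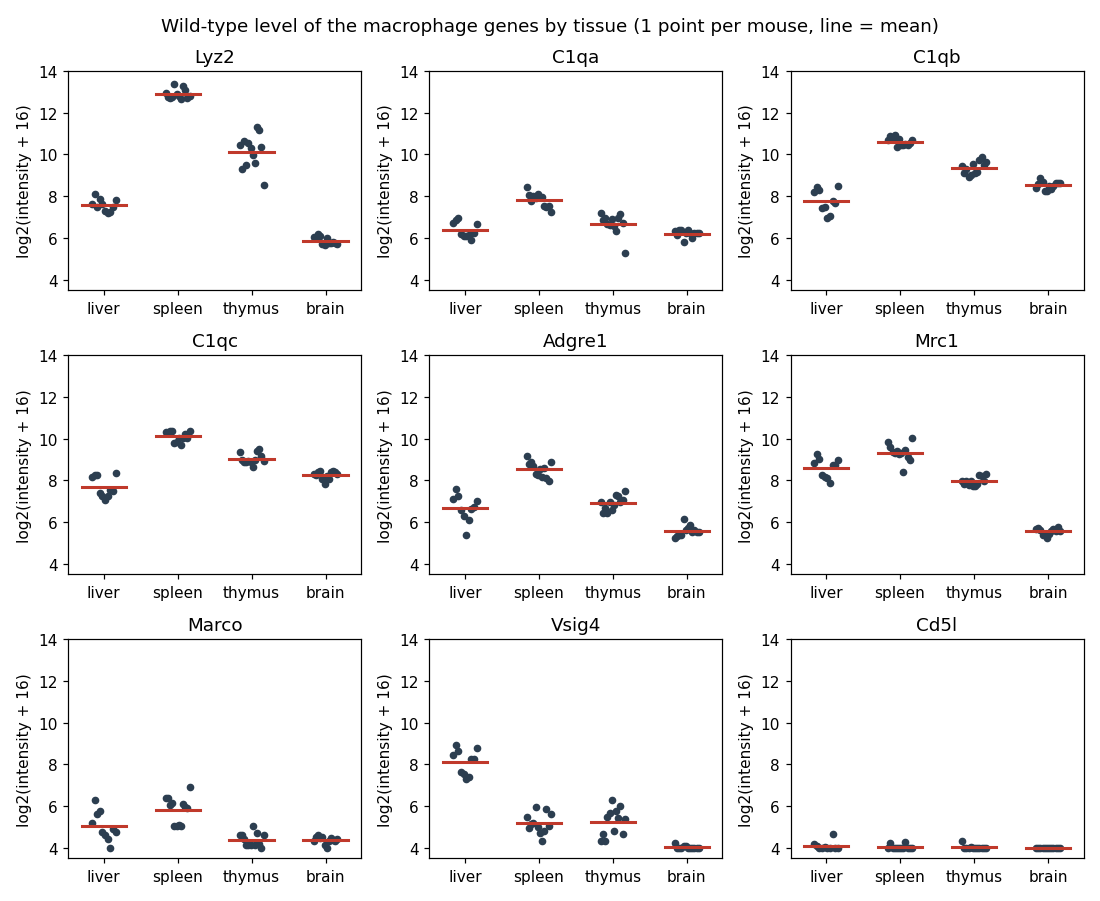
Log2(intensity + 16) of the brightest probe of 9 macrophage genes in wild-type mice by tissue, after joint quantile normalization, with 1 point per mouse and a line at the mean. Lyz2 separates the tissues most, from 7722 in spleen down to 43.1 in brain, Vsig4 stands highest in liver, and Cd5l lies at the noise throughout.

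In the labelled mutants 3 changes of macrophage genes were called over the 12 comparisons of line and tissue, all in spleen. Lyz2 fell in the Hmgn1 and Hmgn3 lines and Marco rose in the Hmgn3 line. Over the 12 comparisons the number of member probes tested was 10 in liver, 12 in spleen, 12 in thymus and 9 in brain. The Cd5l probe was tested in no tissue and Vsig4 not in brain, because they were above noise on fewer than 3 arrays there.

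**Figure D2:**
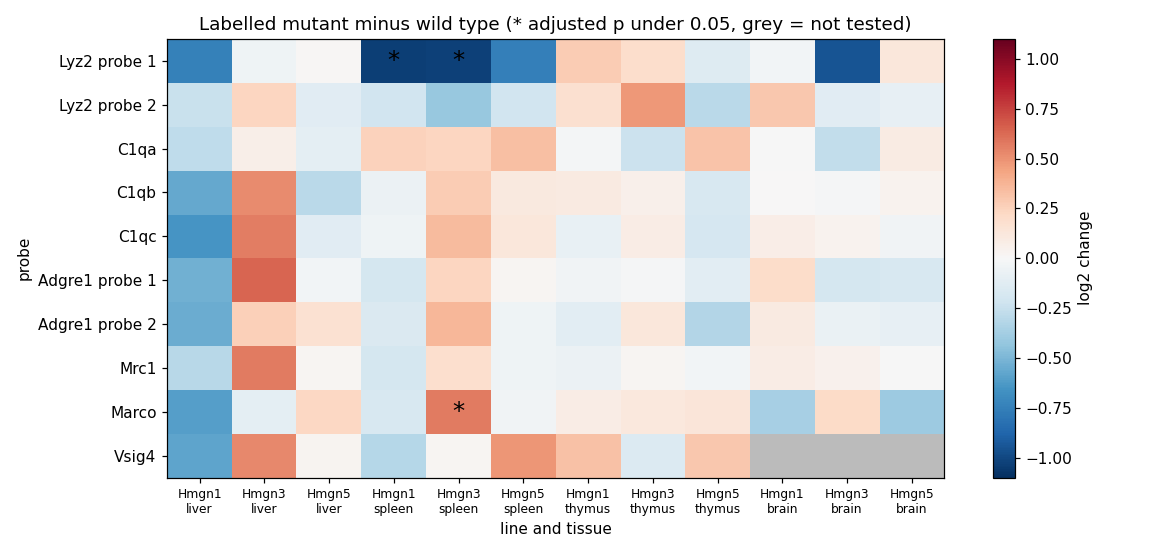
Log2 change, labelled mutant minus wild type, of 10 macrophage probes in 12 combinations of line and tissue (colour), with stars on the 3 called changes and grey where a probe was not tested. Lyz2 is lower in spleen of all 3 lines by its brightest probe, and in liver all 10 probes are lower in the Hmgn1 line while 8 of 10 are higher in the Hmgn3 line.

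In spleen of the Hmgn1 line the brightest Lyz2 probe read 3621, 1817, 1420.5 and 1455 in labelled mutants, against 4786, 3789, 3602 and 3758 in wild types. The highest mutant array lay inside the wild-type range and the other 3 lay below it. The change was -1.04 (SE 0.259, adjusted p = 0.0313). It was the 1 member probe of 12 called there, where 3.09% of all 18519 probes were called, and the 1 member probe at an unadjusted p under 0.05, where 19.2% of all probes were. Non-overlapping groups were found for 0 of the 12 probes and for 10.1% of all probes. The call ended when labelled mutant 2, 3 or 4 or wild type 1, 2 or 3 was left out, with changes from -1.34 to -0.89 over all 8 omissions (adjusted p = 0.00233 to 0.131). Those omissions left 145, 41, 22, 9, 37 and 313 calls over all probes, against 572 with all arrays. Without labelled mutant 1 or wild type 4 there were 1546 and 588.

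In the Hmgn3 line the same probe read 2097, 1813, 1199.6 and 1119.5 in labelled mutants, against 4463, 3258, 2756 and 2229 in wild types. All 4 mutant arrays lay below all 4 wild-type arrays. The change was -1.02 (SE 0.259, adjusted p = 0.0384), and with Marco it made 2 of 12 member probes called, where 2.11% of all probes were called. At an unadjusted p under 0.05 there were 6 of 12 member probes and 15.2% of all probes. The Lyz2 call ended without labelled mutant 3 or 4 or wild type 1, 2 or 3, with changes from -1.18 to -0.85 over all 8 omissions (adjusted p = 0.0172 to 0.152). Those omissions left 10, 74, 8, 40 and 175 calls over all probes, against 391 with all arrays. Without labelled mutant 1 or 2 or wild type 4 there were 720, 339 and 583. Of the 12 probes 3 had non-overlapping groups, as did 7.77% of all probes. In the Hmgn5 line the values were 1948, 1714, 2026 and 1124 in labelled mutants, against 3579, 3052, 2284 and 2490.5 in wild types. The groups again did not overlap, and the change of -0.75 (SE 0.259, 95% interval -1.26 to -0.24) did not pass (adjusted p = 0.145). In that line 0.902% of all probes and 0 of 12 member probes were called. At an unadjusted p under 0.05 there were 3 of 12 member probes, beside 14.5% of all probes. There 2 of 12 had non-overlapping groups, as did 7.83% of all probes.

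The other Lyz2 probes had smaller values of change. The second probe averaged 944 ± 156 in labelled mutants and 1092 ± 133 in wild types of the Hmgn1 line (n = 4 each), a change of -0.21 (adjusted p = 0.358). In the Hmgn3 line it averaged 473 ± 65.5 in labelled mutants and 634 ± 56.9 in wild types (n = 4 each), without overlap, and the change of -0.42 did not pass (adjusted p = 0.0733). In the Hmgn5 line its change was -0.21 (adjusted p = 0.457). The third probe lay near the noise, between -2.09 and 5.44 over all spleen arrays. Lyz1, a close paralog of Lyz2 on the same array, had 3 probes with changes from -0.96 to 0.45 in spleen, none of which passed. Whether a Lyz2 probe also reads Lyz1 was not tested.

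Marco, at low intensity, read 13.2, 17.6, 13.5 and 18.8 in labelled Hmgn3 mutants, against 5.34, 5.29, 5.55 and 5.08 in wild types. All arrays of both groups were above noise and the groups lay apart. The change was 0.57 (SE 0.121, adjusted p = 0.0212), and the call ended without labelled mutant 3 or 4 or wild type 1 or 2 (adjusted p = 0.0129 to 0.074 over all 8 omissions). Those omissions left 10, 74, 8 and 40 calls over all probes, against 391 with all arrays. In the other 2 lines Marco did not pass: the Hmgn1 line read 20.6 to 23.9 in labelled mutants and 23.1 to 31.8 in wild types (-0.17, adjusted p = 0.467). In the Hmgn5 line the ranges were 9.27 to 19.6 in labelled mutants and 11.1 to 27.1 in wild types (-0.04, adjusted p = 0.946). Lines were normalized separately, so Marco levels are not set against each other between lines.

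**Figure D3:**
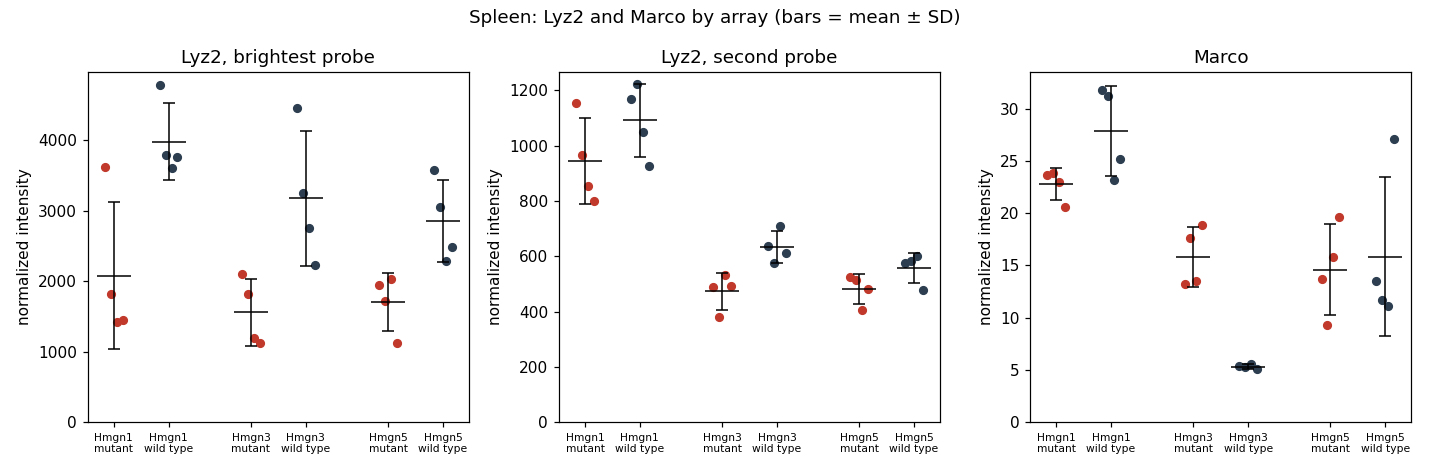
Normalized intensity on each spleen array of the brightest and the second Lyz2 probe and of Marco, by line and genotype, with mean ± SD. The brightest Lyz2 probe separates labelled mutants from wild types in the Hmgn3 and Hmgn5 lines and all but 1 mutant in the Hmgn1 line, and Marco separates them in the Hmgn3 line, at 13.2 to 18.8 against 5.08 to 5.55.

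Spleen arrays also differed inside their groups along the replicate number, 1 to 4, that the labels give them. The brightest Lyz2 probe had a slope of -0.27 per number inside groups (SE 0.0399, adjusted p = 0.002), and replicate 1 was the highest array in 5 of 6 groups. Of all 18519 probes, 2.61% passed that test in spleen, and 0 passed in liver, thymus and brain by limma. Of 5 probes of Actb, a cytoskeletal gene often used as a control, 1 passed, with a slope of 0.15 (adjusted p = 0.00259). The other 4 did not pass, 3 with slopes of 0.05, 0.20 and 0.26 and 1 with a slope of the same sign as Lyz2 (-0.19, adjusted p = 0.126). The probe that passed averaged 11840.0, 8694 and 7344 in labelled mutants of the Hmgn1, Hmgn3 and Hmgn5 lines, against 9066, 5883 and 5695 in their wild types. Of the 5 Actb probes, 2 passed in the Hmgn1 line, 3 in the Hmgn3 line and 2 in the Hmgn5 line, with changes over all of them from -1.11 to 1.72. The labels do not say what the replicate number stands for. With that number as a covariate inside groups the brightest Lyz2 probe passed in all 3 lines, at adjusted p = 0.000638, 0.000643 and 0.00794. Of all 18519 probes, 1110, 837 and 701 passed there. Labelled mutants were also numbered on from the wild types as 5 to 8, an order that the labels do not give. The changes of that Lyz2 probe were then 0.03, 0.04 and 0.31 and none passed, where 0, 2 and 0 of all probes did. Because that numbering puts every labelled mutant above every wild type, few probes could pass. Its fit therefore cannot decide about Lyz2. Both covariates were chosen after the data had been seen. The part of this pattern in the Lyz2 result was not tested.

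**Figure D4:**
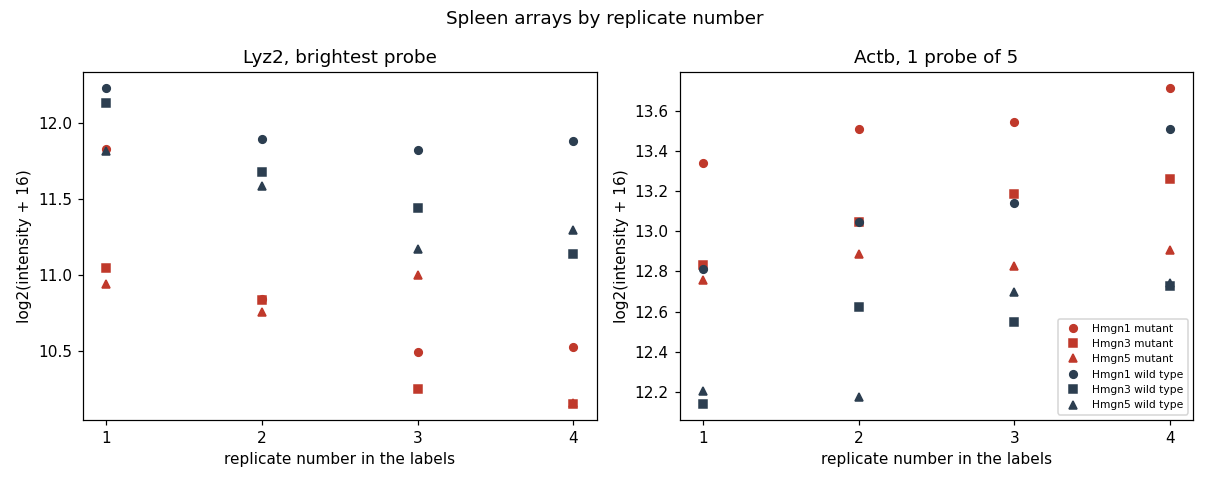
Log2(intensity + 16) of the brightest Lyz2 probe (left) and of 1 Actb probe (right) on each spleen array against the replicate number in the labels, with a symbol per line and a colour per genotype. Lyz2 is highest at replicate 1 in 5 of 6 groups, while the Actb probe, the 1 of 5 that passed, has a slope of 0.15 per number.

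The remaining spleen probes of the macrophage genes did not pass. C1qa was higher in labelled mutants of every line, at 0.25, 0.24 and 0.33 for Hmgn1, Hmgn3 and Hmgn5 (adjusted p = 0.292, 0.407 and 0.199). In the Hmgn5 line it read 47.7, 48.3, 64.5 and 72.0 in labelled mutants, against 45.4, 42.6, 46.2 and 35.2 in wild types, without overlap. C1qb and C1qc had their largest spleen values in the Hmgn3 line, at 0.28 (adjusted p = 0.103) and 0.35 (adjusted p = 0.121). Vsig4 was 0.48 in the Hmgn5 line (adjusted p = 0.111). Adgre1 and Mrc1 lay between -0.20 and 0.24 in all 3 lines by their brightest probes. The median change of the 8 tested genes was -0.18, 0.24 and 0.07 in the 3 lines, beside 0.0062, 0.0066 and 0.004 over all probes.

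In liver of the Hmgn1 line all 10 tested probes of the macrophage genes were lower in labelled mutants and none passed. The median change of 8 genes was -0.57, beside -0.0006 over all probes, and 50.4% of all probes were lower. By limma 0 of 10 were called, where 0.0318% of all 15732 probes were, and 8 of 10 had an unadjusted p under 0.05, as did 8.09% of all probes. C1qc read 346, 231, 309.6 and 128 in labelled mutants, against 359.7, 391 and 396 in wild types. The groups did not overlap, and the change was -0.65 (SE 0.255, adjusted p = 0.48). Lyz2 read 189.9, 167, 181 and 74.1 in labelled mutants, against 230.0, 344 and 206 in wild types (-0.75, adjusted p = 0.413), again without overlap. These were 2 of 10 probes without overlap, where 7.4% of all probes had none.

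Labelled mutant 4 of this line was the lowest of its group for C1qa, C1qb, C1qc, Lyz2, Mrc1 and Vsig4. Vsig4, the complement receptor of Kupffer cells, read 469, 307, 537 and 239.6 in labelled mutants, against 466.1, 693 and 550.4 in wild types, and the groups overlapped (-0.58, adjusted p = 0.52). Without that mouse the median change of the 8 genes was -0.38. Adgre1 (-0.53), Mrc1 (-0.30), Marco (-0.60) and C1qb (-0.56) were lower by unadjusted p-values under 0.05, and C1qa (-0.28) was not.

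In the Hmgn3 line the same genes lay on the other side: 8 of 10 probes were higher in labelled mutants and the median of 8 genes was 0.53. Mrc1 read 201, 166, 187 and 154 in labelled mutants, against 127, 118, 115 and 94.7 in wild types. The groups lay apart, and the change of 0.57 (SE 0.112, 95% interval 0.35 to 0.79) did not pass (adjusted p = 0.18), although it passed with 3 other settings, as given in the closing section. By limma 0 of 15732 probes were called in this comparison (0%), 4.86% of them had an unadjusted p under 0.05, and 5 of the 10 member probes did.

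Adgre1 read 49.97, 30.4, 33.7 and 38.7 in labelled Hmgn3 mutants, against 28.3, 21.7, 9.13 and 17.6 in wild types (0.64, SE 0.175, adjusted p = 0.62). C1qc read 105, 73.5, 69.6 and 97.5 in labelled mutants, against 60.8, 53.7, 43.8 and 53.0 in wild types (0.56, adjusted p = 0.958). Vsig4 read 146, 78.3, 81.9 and 108 in labelled mutants, against 74.6, 69.2, 56.8 and 59.8 in wild types (0.53, adjusted p = 0.969). With C1qb (0.52) and Mrc1 these were 5 of 10 probes without overlap between genotypes, where 3.36% of all probes had none. Lyz2 (-0.05), Marco (-0.11) and C1qa (0.07) overlapped.

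In the Hmgn5 line liver showed no common direction, with 4 genes higher and 4 lower and a median of -0.01. Its member changes ran from -0.30 for C1qb to 0.23 for Marco, 0 of 10 probes were called, where 0.42% of all probes were, and 0 had an unadjusted p under 0.05, where 11.1% of all probes did. Non-overlapping groups were found for 0 of 10 probes and 10.6% of all probes. The difference between the 3 lines was tested with an F test in each tissue. Mrc1 in liver came nearest to the threshold (adjusted p = 0.058), followed by Adgre1 (adjusted p = 0.15), and C1qc was at 0.319. Without labelled Hmgn1 mutant 1 or Hmgn1 wild type 1, 1 member probe was called in liver. The share of all probes called in those fits was not counted. With all arrays, 0 member probes were called for a difference between lines. The share of all probes called was then 0.172% in liver, 0.0162% in spleen, 0.0494% in thymus and 0.00521% in brain. At an unadjusted p under 0.05 the F test in liver held Mrc1, Adgre1 by 2 probes, C1qc, Vsig4 and C1qb, which made 6 of 10 member probes, where 9.48% of all 15732 probes were under it. The counts were 3 of 12 in spleen, 0 of 12 in thymus and 3 of 9 in brain, where the shares of all probes were 5.02%, 4.7% and 9.87%.

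**Figure D5:**
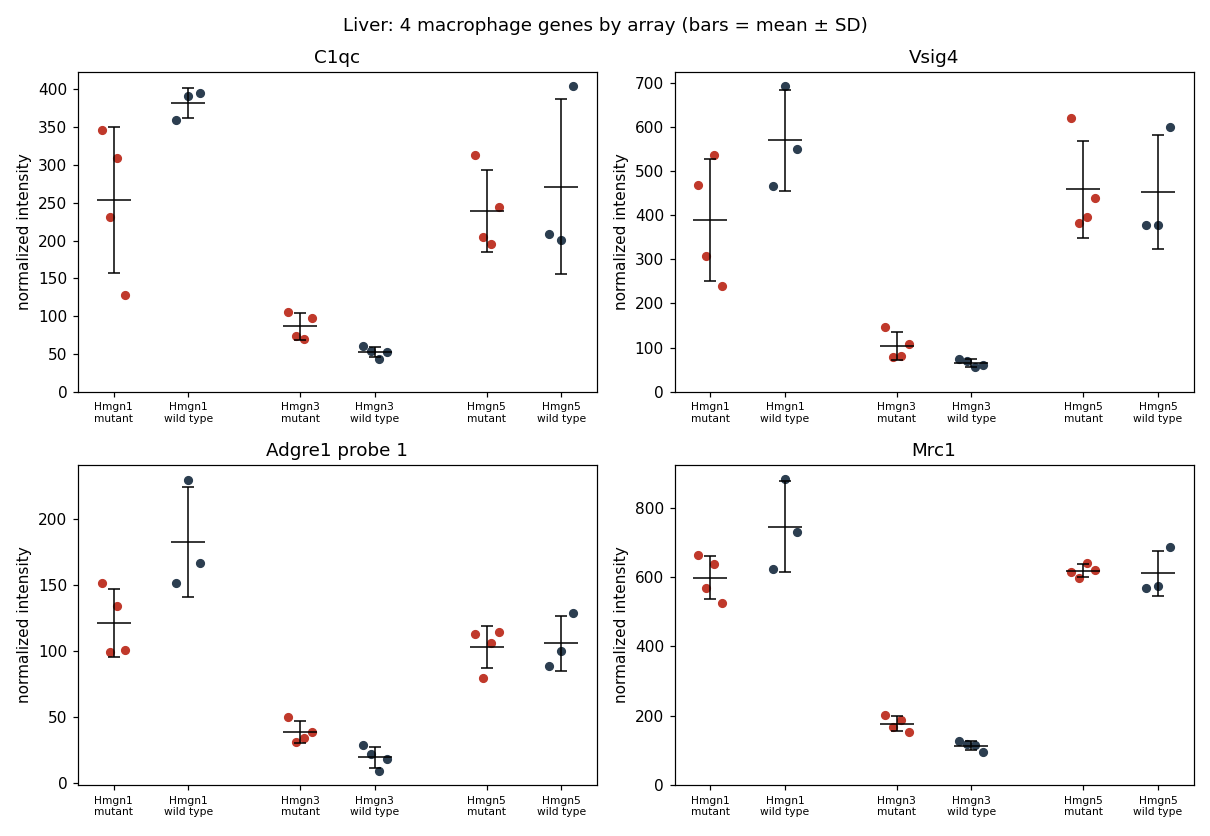
Normalized intensity of C1qc, Vsig4, Adgre1 and Mrc1 on each liver array by line and genotype, with mean ± SD. Labelled Hmgn1 mutants tend to the low side of their wild types and labelled Hmgn3 mutants lie above theirs, at 154 to 201 against 94.7 to 127 for Mrc1.

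Endothelial genes lay on the same side as the macrophage genes in liver of both lines. Of 12 endothelial genes tested, 11 were lower in labelled Hmgn1 mutants (median -0.11) and 11 were higher in labelled Hmgn3 mutants (median 0.26), and none passed. Their summed intensity ran from 6936 to 7484 in labelled Hmgn1 mutants and from 7562 to 7918 in wild types. It ran from 2395 to 2554 in labelled Hmgn3 mutants and from 1726 to 2225 in wild types. Liver sinusoidal endothelium also carries Mrc1, and the part of the endothelial genes in the liver values was not tested. Of 8 Kupffer cell genes 6 were lower in labelled Hmgn1 mutants (median -0.20) and 6 higher in labelled Hmgn3 mutants (median 0.25), with Clec4f, a Kupffer cell lectin, at 0.48 (adjusted p = 0.835). Of 15 core macrophage genes 10 were lower (median -0.17) and 11 were higher (median 0.08) in the same 2 comparisons, and 0 passed. Timd4 and Cd163 are on both of these lists, so the counts are not separate.

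Across the 22 liver arrays the macrophage genes varied together inside groups. The mean Pearson correlation of a gene's deviations from its group means with those of the 7 other genes was 0.57 for Mrc1, 0.65 for Lyz2, C1qa and Adgre1, 0.67 for C1qc and 0.72 for C1qb and Vsig4, and 0.20 for Marco. In spleen, over 24 arrays, it ran from -0.18 for Lyz2 to 0.37 for Mrc1. The genes outside the group most like it in liver were Wfdc17 (0.75), Fcna (0.70) and Axl (0.69), a receptor tyrosine kinase that binds dying cells. In spleen they were Vcam1, Slc11a1 and Axl, at 0.42 to 0.43. In thymus Cd22, Cltrn and H2-Ab1 and in brain Tmod1, Hic2 and Syne1 came first, none above 0.40. All genes of an array share its RNA and normalization, so these correlations are descriptions.

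In thymus and brain the macrophage genes stayed near the level of their wild types by the median. Over 8 genes in thymus the median change was 0.03, 0.04 and -0.07 for Hmgn1, Hmgn3 and Hmgn5, and over 7 genes in brain it was 0.001, -0.012 and -0.004. By limma 0 member probes were called in any of the 6 comparisons, where the share of all probes called was 0.0494%, 0.011% and 0.0934% in thymus and 0%, 0.0104% and 0.0208% in brain. At an unadjusted p under 0.05 there were 0, 1 and 0 of 12 member probes in thymus, where the shares of all probes were 8.37%, 6.31% and 9.14%, and 1, 2 and 1 of 9 in brain, where they were 3.87%, 10.7% and 8.95%. Groups did not overlap for 0 of 12 probes in each thymus comparison (6.04%, 5.32% and 3.15% of all probes) and for 1 of 9 in each brain comparison (4.22%, 3.41% and 4.67%). The largest value in brain was Lyz2 in the Hmgn3 line, which read 53.7, 42.1, 58.4 and -1.02 in labelled mutants, against 69.0, 66.9, 90.3 and 73.5 in wild types. The groups did not overlap, 1 mutant array lay at the noise, and the change of -0.95 did not pass (adjusted p = 0.262). The second Lyz2 probe read 35.3 to 83.5 in these mutants and 55.3 to 63.4 in wild types (-0.12).

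Whether a mutant effect differed between tissues was tested line by line, taking each mouse as a random block. By this F test 0 member probes were called, where 0.422%, 0.177% and 0.304% of 22022 probes were called in the Hmgn1, Hmgn3 and Hmgn5 lines. The smallest adjusted p of a member was 0.194, for Lyz2 in the Hmgn1 line. The Lyz2 change was thus called within spleen, while its difference from the other tissues was not.

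Other genes of macrophages and their pathways were read from 15 lists, in which 8 changes passed over all comparisons, all in spleen. Of 130 distinct genes of these lists tested in spleen, 6 passed in the Hmgn1 line (4.62%, beside 3.09% of all probes), 1 in the Hmgn3 line (0.769%, beside 2.11%) and 1 in the Hmgn5 line (0.769%, beside 0.902%). These shares lie near or below those of all probes, so the genes below are given as single values and not as a result about the lists. In the Hmgn1 line 1 of 9 splenic macrophage genes fell and the other 8 were lower (median -0.43). The gene that fell was Spic, a transcription factor of red pulp macrophages, at 309 ± 27.0 in labelled mutants and 488 ± 114 in wild types (n = 4 each, -0.61, adjusted p = 0.0279). The Spic change was -0.27 in the Hmgn3 line (adjusted p = 0.395) and -0.35 in the Hmgn5 line (adjusted p = 0.257). The list as a whole was not lower in the Hmgn3 line, with 6 of 9 genes higher and 3 lower (median 0.065). In the Hmgn5 line 3 were higher and 6 lower (median -0.032). In spleen of the Hmgn1 line Cd55, a regulator that protects cells from complement (-0.50, adjusted p = 0.0292), fell as 1 of 6 complement genes tested. Csf2ra, a receptor chain for GM-CSF (-0.64, adjusted p = 0.0412), fell as 1 of 11 genes of the CSF1 receptor pathway list. Tlr2, a receptor for bacterial lipoproteins (-0.44, adjusted p = 0.0355), fell as 1 of 13 scavenger and pattern receptors, and P2ry13, a purine receptor (-0.58, adjusted p = 0.0238), as 1 of 10 genes on the microglia list.

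In spleen of the labelled Hmgn1 mutants 1 of 6 B cell genes, Fcer2a, fell (-0.62, adjusted p = 0.0288). Of 6 T cell genes, Cd4 rose in the Hmgn3 line (0.84, adjusted p = 0.0237) and Cd3d in the Hmgn5 line (0.73, adjusted p = 0.0251). Of 11 neutrophil genes, which share Lyz2 with macrophages, 0 passed in any line. Their median was 0.18 in the Hmgn1 line, with 8 higher, -0.18 in the Hmgn3 line, with 10 lower, and 0.03 in the Hmgn5 line. Summed neutrophil intensity overlapped between genotypes in each line, at 3803 to 4967 in labelled Hmgn1 mutants and 2638 to 6770 in wild types, at 1585 to 1756 in labelled Hmgn3 mutants and 1077 to 4454 in wild types, and at 1939 to 5616 in labelled Hmgn5 mutants and 2635 to 5128 in wild types. Of 9 monocyte and dendritic cell genes 0 passed, with medians from -0.04 to 0.04. Pancreatic acinar genes, a sign of attached pancreas, were higher in spleen for 6 of 6 in the Hmgn1 (median 0.64) and Hmgn3 lines (0.63). They were lower for 6 of 6 in the Hmgn5 line (-1.26), and 0 passed. Their summed intensity varied widely between arrays and overlapped between genotypes in each line. It ran from 93.7 to 35780 in labelled Hmgn1 mutants and from 152.9 to 12190 in wild types. The ranges were 76.2 to 6030 and 64.2 to 795 in the Hmgn3 line, and 44.8 to 18310 and 506 to 14780 in the Hmgn5 line. Of 9 skeletal muscle genes and 10 genes of lipid handling by macrophages 0 passed in spleen. The part of other cell types in the Lyz2 values was not tested.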

How the data were processed

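RNA of brain, liver, spleen and thymus was measured on Illumina bead arrays, 1 array per tissue of a mouse. The deposited values are normalized intensities from GenomeStudio 2011.1, per the submitters' processing notes. As the values show, they were normalized separately for each line and tissue, by a method the sources used here do not name. A raw-signal table of 188 columns was not used because its column names match no sample label. Between 12238 and 16422 of 25697 probes were above noise on an array, and the number of arrays limits the precision.

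Negative intensities were set to 0, 16 was added and log2 taken. Probes entered the tests of a tissue if they exceeded 1.64 times the noise (root mean square of an array's negative values) on 3 or more arrays. The 6 groups of a tissue entered 1 limma fit (limma 3.58.1, R 4.3.3), two-sided, with Benjamini-Hochberg adjustment over all tested probes and a threshold of 0.05. Differences between lines or tissues were F tests, the second with the mouse as a random block. Wild-type tissue levels were compared after joint quantile normalization, with line as a term and the mouse as a random block. The procedure was tested on simulated Hmgn1 liver and spleen data with 200 changed probes each. It recovered 44% and 42% of changes of 0.5 on the log2 scale, and 86% and 81% of changes of 1. Of 146 calls in liver 16 were false, as were 6 of 129 in spleen. The simulated noise was drawn separately for each probe and array. Variation that probes share, as along the replicate number in spleen, was therefore not simulated.

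All probes of the 10 genes are reported. From other lists, genes that passed are named, at most 4 a list, or else at most 2 with the smallest p. Genes most like the group are the 3 with the highest mean correlation in a tissue. The genes and lists were chosen with earlier results of these data known. Probe names came from the platform annotation: 23978 probes had 1 symbol, 0 had several and 1719 had none. Promoters came from RefSeq (GRCm38.p6). Alternatives were a floor of 1 in place of the offset, no filter and a stricter one, array weights, a replicate block, joint normalization of lines, another variance prior, single-line fits, omitted arrays and replicate-number covariates.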

Additional observations from a re-analysis of the deposited data

Results flagged for a closer look

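In 11 of 170 groups of 4 arrays, 1 array stood far from the other 3. Chance does this in about 1 in 20 groups.

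In labelled Hmgn1 mutant livers, replicate 4 had a Lyz2 level of 74.1, below 167 to 190.0 on the others. In spleen of the Hmgn3 line Mrc1 was high at 246 in labelled mutant 4 (others 180.0 to 184) and low at 99.5 in wild type 4 (others 196 to 212).

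In thymus C1qc was 391 in Hmgn1 wild type 1 (others 285 to 297) and Marco was 5.92 in Hmgn3 wild type 3 (others 0.616 to 0.734). Vsig4 was 48.8 in labelled Hmgn1 mutant 1 (others 2.59 to 6.25) and 45.4 in labelled Hmgn5 mutant 4 (others 21.1 to 23.5).

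In brain, labelled Hmgn3 mutant 4 was low for Lyz2 at -1.02 (others 42.1 to 58.4) and high for C1qa at 96.5 (others 79.5 to 80.2). Hmgn5 wild type 1 was low for C1qa at 124 (others 150.0 to 152) and for C1qb at 796 (others 861 to 869).

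C1qc in liver changed by -0.65 in the Hmgn1 line and by 0.56 in the Hmgn3 line, with every labelled mutant below every wild type in the first and above in the second. The limma F test of a difference between lines did not pass (adjusted p = 0.319).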

How the results depend on the processing

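The count of macrophage probes called was 1 in Hmgn1 spleen. It became 0 with a floor of 1, with no filter and with lines normalized together. The count was also 0 with the trend and robust prior, with only that line's arrays and with labelled mutants numbered 5 to 8. Over all probes the calls there went from 572 to 25, 373, 109, 622, 3 and 0 in these settings. The count of 2 in Hmgn3 spleen became 1 with a floor of 1 and with no filter. It became 0 with only that line's arrays and with the 5 to 8 numbering. Over all probes the calls there went from 391 to 41, 150, 5 and 2. The member count became 3, with the second Lyz2 probe added, with array weights (adjusted p = 0.0406), the replicate block (0.0309) and the number as a covariate inside groups (0.0345). In those settings 561, 600 and 837 of all probes were called. With the trend and robust prior the member count stayed at 2 by number, beside 420 calls over all probes. The second Lyz2 probe (0.0431) was then called in place of the brightest (0.0745). The count of 0 in Hmgn3 liver became 1 (Mrc1) with a floor of 1 (adjusted p = 0.0448), with lines normalized together (0.0463) and with the trend and robust prior (0.0123). Over all 15732 probes the calls there went from 0 to 21, 30 and 5. The main fit did not pair arrays by number. Same-numbered pairs were correlated from -0.446 to 0.484, and in no comparison were all of them above 0.1. That does not exclude variation shared along the number, since a slope over it passed for 2.61% of all spleen probes by limma. With the replicate block the count of 0 in Hmgn5 spleen became 1 (Lyz2, adjusted p = 0.0231), and with the number as a covariate inside groups it was also 1. Over all probes the calls there went from 167 to 422 and 701. With labelled mutants numbered 5 to 8, the brightest Lyz2 probe reversed to 0.029 in Hmgn1 spleen and 0.041 in Hmgn3 spleen. That numbering runs with genotype, so these values cannot decide about Lyz2.

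Without 1 array at a time the count ran from 0 to 1 in Hmgn1 spleen, from 0 to 2 in Hmgn3 spleen and from 0 to 0 in the other 10 comparisons. Calls over all probes ran from 9 to 1546 in Hmgn1 spleen and from 8 to 720 in Hmgn3 spleen. For differences between lines the member count ran from 0 to 1 in liver, where calls over all probes were not counted, and from 0 to 0 elsewhere. It ran from 0 to 0 for differences between tissues. Between wild-type tissues it ran from 11 to 11 (liver and spleen), 7 to 8 (liver and thymus), 9 to 9 (liver and brain), 10 to 10 (spleen and thymus), 11 to 12 (spleen and brain) and 10 to 10 (thymus and brain).

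On the deposited values without joint normalization, wild-type counts were 7 between liver and spleen, 5 between liver and brain and 6 between spleen and brain. The share of all probes that passed was not counted in this setting, so these counts have no background beside them. Signs reversed for Mrc1 in liver minus spleen (0.61), C1qa in liver minus thymus (0.14), and C1qa (-1.12) and Adgre1 by 2 probes (0.00 and -0.21) in liver minus brain. They reversed for C1qa (-0.73), C1qb (-0.34) and C1qc (-0.59) in spleen minus brain. In thymus minus brain they reversed for C1qa (-1.27), C1qb (-0.96), C1qc (-1.04), Adgre1 by 2 probes (-0.33 and -0.56) and Marco (-0.46). The cause of these shifts was not tested. Among 129 mutant changes, array weights turned the sign of 9, a floor of 1 turned 2, the replicate block 1, and the 5 to 8 numbering 36. Dim probes such as Marco, Vsig4 in spleen and Cd5l lie near the noise, which limits what can be read from them.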
